A study of Mus musculus with 6 samples.

Results

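The 10 genes described here are Id1, Id2, Id3, Id4, Bmp1, Bmp2, Bmp4, Bmp6, Grem1 and Smad6, taken by symbol from a deposited table of 27366 features. All 10 were found, and all 10 had a mean of at least 1 scaled read and entered the tests. Their RNA was measured by sequencing in mouse satellite cells, the resident stem cells of skeletal muscle, at day 4 of growth culture with serum and basic FGF. The labels put 3 libraries in a group of genotype control and 3 in a group of genotype Islr knockout, numbered 1 to 3 in each, and both groups share tissue, culture and day. The series describes the cells as sorted by flow cytometry for Islr being present or absent. The sources used here do not give strain, age, the allele, the deleted part of Islr or any driver line. The labels do not say that the libraries of a group come from separate animals or cultures. The p-values therefore measure the spread between these libraries, which may be technical.

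Bone morphogenetic proteins (BMPs) are secreted ligands that bind pairs of receptor kinases, which phosphorylate Smad1, Smad5 and Smad9; these join Smad4 and switch on target genes. Among the best known targets are the Id genes and Smad6, and in muscle the pathway is known for keeping satellite cell descendants dividing and undifferentiated. Id proteins are helix-loop-helix factors without a DNA-binding region; they take up the E proteins that MyoD and myogenin need as partners. The 10 genes hold all of these roles rather than ligands and Id factors alone. Bmp2, Bmp4 and Bmp6 encode ligands, Grem1 a secreted antagonist, Bmp1 a tolloid metalloprotease that is no ligand despite its name, Smad6 an inhibitory Smad, and Id1 to Id4 the target factors.

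RefSeq promoter windows (GRCm38.p6) were on hand for 7 of the 10 genes. The 250 bases before the start are shown for Grem1 and Bmp4, whose values were higher in every knockout library than in its same-numbered control, and for Id4 as the Id gene whose window lies wholly outside transcripts. Each is written 5′ to 3′ on the gene's strand. Capitals mark GGCGCC, a GC element bound by Smads, and CAGAC or its reverse complement GTCTG, the Smad box.
Grem1: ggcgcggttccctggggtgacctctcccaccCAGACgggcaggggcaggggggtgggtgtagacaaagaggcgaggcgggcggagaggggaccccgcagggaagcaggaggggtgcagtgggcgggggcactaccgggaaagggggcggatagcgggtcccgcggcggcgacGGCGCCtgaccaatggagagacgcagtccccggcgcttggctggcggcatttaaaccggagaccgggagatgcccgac
Bmp4: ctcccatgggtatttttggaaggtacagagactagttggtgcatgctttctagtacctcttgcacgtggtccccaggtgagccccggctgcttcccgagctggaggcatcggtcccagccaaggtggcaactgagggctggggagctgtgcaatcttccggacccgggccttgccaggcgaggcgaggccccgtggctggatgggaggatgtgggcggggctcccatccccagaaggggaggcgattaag
Id4: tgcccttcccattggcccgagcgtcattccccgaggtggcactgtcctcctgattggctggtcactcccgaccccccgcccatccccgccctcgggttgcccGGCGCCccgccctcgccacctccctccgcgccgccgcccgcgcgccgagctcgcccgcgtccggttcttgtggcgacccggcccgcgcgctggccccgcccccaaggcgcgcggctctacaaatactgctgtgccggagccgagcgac
The Grem1 window is chr2:113758649-113758898 on the minus strand, the Bmp4 window chr14:46390670-46390919 on the minus strand and the Id4 window chr13:48260866-48261115 on the plus strand. Grem1 held GGCGCC at 78 and CAGAC at 219 bases before the start, and Id4 held GGCGCC at 148 bases, each counted from the match's first base. Bmp4 held neither motif and 3 copies of the E box CANNTG, the letters that E proteins and MyoD bind. Of the windows not shown, that of Smad6 held neither motif and no E box. The Id2 window held 1 GGCGCC and 1 E box, and the Id3 window 2 Smad boxes. The Bmp6 window held 1 Smad box and 2 E boxes. No E box lay in the Grem1, Id3 and Id4 windows. Of 32851 mouse promoter windows of the same length, 9.59% held GGCGCC, 42.2% held CAGAC or GTCTG and 66.2% held CANNTG, counting both strands. These matches describe the letters of the windows; no binding was measured.

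The libraries held between 16456917 and 20531276 reads on genes. Values below are scaled reads, the gene count after division by the library's size factor, with means ± SD over 3 libraries. Islr, the targeted gene, stood at 181.1, 12.8 and 1579 in libraries labelled control 1, 2 and 3 and at 256.7, 7.4 and 10.9 in libraries labelled knockout 1, 2 and 3. The library labelled knockout 1 thus held more Islr than 2 of the 3 labelled control, against its label. The library labelled control 2 held about as little as knockout 2 and 3. Each library is therefore called by its label throughout. For Grem1, Bmp2 and Bmp4 the log2 difference is also given without knockout 1 and without control 2, and for other genes only in part. The satellite cell label held in all 6 libraries: Pax7 lay between 1233 and 2729 and Myod1 between 18888 and 33818. Myog, which marks differentiating myoblasts, stood at 43370, 417.2 and 43261 in control 1, 2 and 3 and at 37228, 1998 and 5737 in knockout 1, 2 and 3. It was thus low in control 2 and in knockout 2 and 3. Grem1 and Bmp2 were high in knockout 2 and 3 but lowest of all 6 libraries in control 2, at 2159 and 26.8. Whether Myog goes with them was not tested. The column of control 1 is tied to its label by a number with 2 digits exchanged; the other 5 match exactly. Libraries with the same number deviated from their group means together (Pearson r between 0.625 and 0.689 over 14280 genes), so a fit with the replicate number as a block is given beside results it moves.

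No gene of the 10 passed the adjusted threshold between the groups. Across all 20344 features tested, limma called 0 (0%) at an adjusted p under 0.05 and 276 (1.36%) at an unadjusted p under 0.05; of the 10 genes, 1 had such an unadjusted p. With the replicate block limma again called 0, and 933 (4.59%) features had an unadjusted p under 0.05, among them 2 of the 10. The edgeR quasi-likelihood test on recovered reads called 0 of 14214 features, with 162 (1.14%) at an unadjusted p under 0.05, again including 2 of the 10. DESeq2 on recovered reads called 0 of 27366, with 318 (1.16%) at an unadjusted p under 0.05, the same 2 genes, Grem1 and Bmp2, included. All 10 had overlapping groups; 2.65% of features lay wholly higher and 2.11% wholly lower in the knockout libraries. The estimate was on the higher side for 7 genes and on the lower side for 3, and the median log2 difference of the 10 was 0.15, beside 0.03 over all features tested. The adjusted p in limma was 1.0 for every one of the 10.

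The ligand genes Bmp2 and Bmp4 and the antagonist gene Grem1 were the 3 members higher in the knockout library of all 3 same-numbered pairs, as were 12.2% of all features. Grem1, which encodes gremlin, a cystine-knot protein that captures BMP2 and BMP4 outside the cell, lies on chromosome 2 from 113746164 to 113758646 (GRCm38, minus strand) with 2 exons. It stood at 3073, 2159 and 4087 scaled reads in libraries labelled control 1, 2 and 3, and at 3274, 7824 and 19048 in libraries labelled knockout 1, 2 and 3. Knockout libraries 2 and 3 lay above every control library, and knockout 1 lay inside the control range. The group means were 3106 ± 964 (SD, n = 3) and 10049 ± 8119 (SD, n = 3). In limma this was a log2 difference of 1.39 ± 0.60 (SE; 95% interval 0.01 to 2.76; unadjusted p = 0.0481). With the replicate block the standard error was 0.39 and the limma p 0.00856 (adjusted p = 0.92).

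Single libraries moved the Grem1 estimate. Its limma log2 difference was 2.02 without knockout 1, 1.15 without control 2 (unadjusted p = 0.154) and 0.75 without knockout 3, with an adjusted p of 1.0 for each. In the blocked limma fit without both libraries of number 1 it was 2.04 with an adjusted p of 0.00669, and Grem1 was then 1 of 93 (0.462%) features called. By pair, the differences were 0.09, 1.86 and 2.22 on the log2 scale for numbers 1, 2 and 3, so the pair of number 1 showed almost none.

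**Figure D1:**
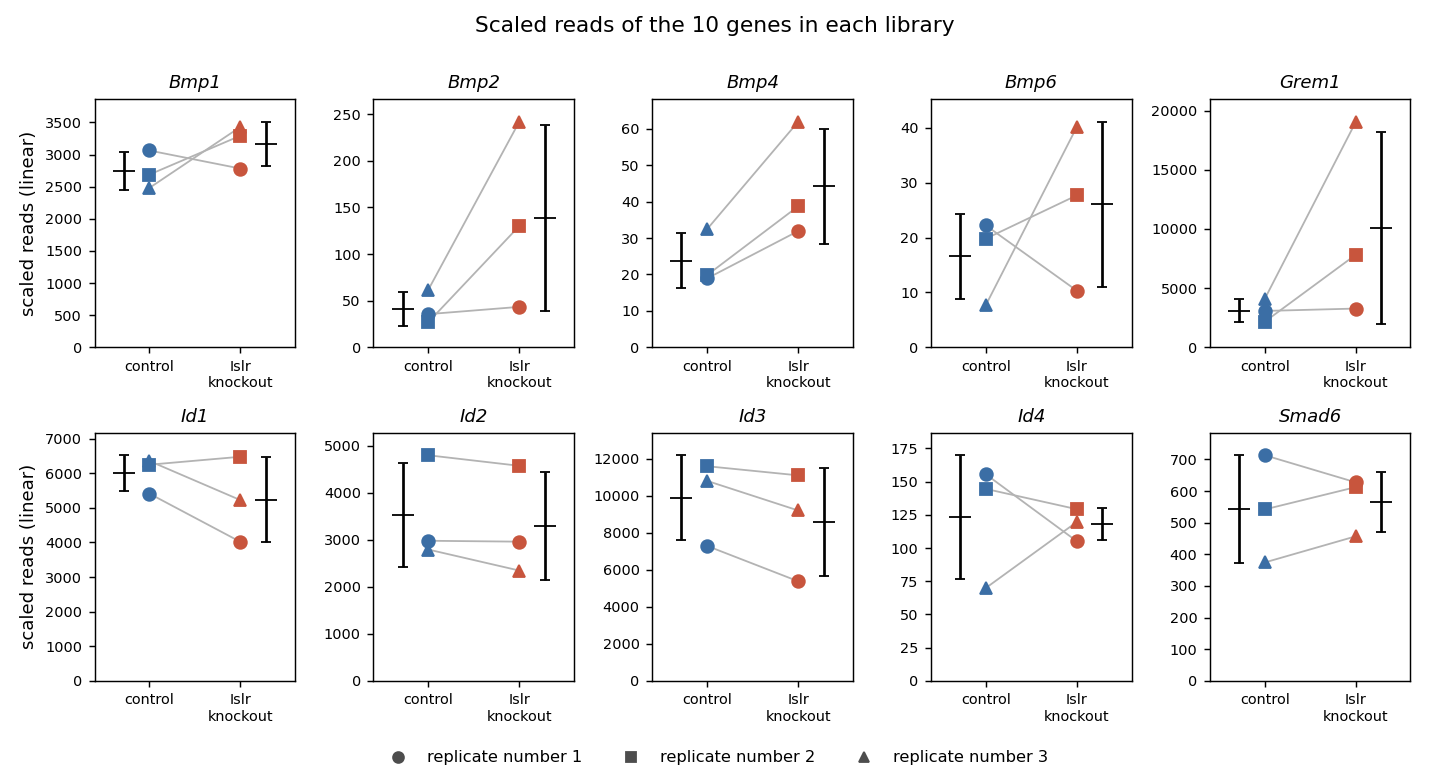
Scaled reads (linear axis from 0) of each of the 10 genes in the control (blue) and Islr knockout (red) libraries; marker shape and grey lines join libraries of the same number, and black bars give mean ± SD (n = 3). Grem1 and Bmp2 stand high in knockout libraries 2 and 3 only, at 7824 and 19048 and at 130.1 and 241.9, and every gene's groups overlap.

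Bmp2, a ligand of BMPR1A-type receptors best known from bone formation, lies on chromosome 2 from 133552159 to 133562885 (plus strand) with 3 exons. It stood at 35.6, 26.8 and 61.4 scaled reads in libraries labelled control 1, 2 and 3, and at 43.4, 130.1 and 241.9 in libraries labelled knockout 1, 2 and 3. The 6 libraries ranked in the same order as for Grem1: knockout 2 and 3 lay above all control libraries and knockout 1 among them. Means were 41.2 ± 18.0 and 138 ± 99.5 (SD, n = 3 each), and the limma log2 difference was 1.49 ± 0.66 (SE; 95% interval -0.01 to 2.99; unadjusted p = 0.0511). The blocked limma fit gave a 95% interval of 0.48 to 2.50 and an unadjusted p of 0.00881 (adjusted p = 0.92). Pair differences were 0.28, 2.24 and 1.96 on the log2 scale. Leaving out knockout 3 gave a limma log2 difference of 0.94, the lowest over the alternatives, leaving out control 2 gave 1.23, and leaving out knockout 1 gave 2.16, the highest.

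Bmp4, the closest relative of Bmp2, lies on chromosome 14 from 46383520 to 46390669 (minus strand), with 4 exons in its longest transcript. It was scarce, at 18.9, 19.8 and 32.4 scaled reads in libraries labelled control 1, 2 and 3 and at 31.9, 38.7 and 61.9 in libraries labelled knockout 1, 2 and 3. The groups met only where control 3 lay just above knockout 1. Means were 23.7 ± 7.54 and 44.2 ± 15.7 (SD, n = 3 each), with a limma log2 difference of 0.86 ± 0.52 (SE; 95% interval -0.33 to 2.05; unadjusted p = 0.136). The log2 difference of Bmp4 was 1.06 without knockout 1 and 0.76 without control 2. In contrast to Grem1 and Bmp2, its pair differences had similar values, 0.73, 0.93 and 0.91 on the log2 scale; whether they differ less between pairs than those of Grem1 or Bmp2 was not tested.

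Bmp6, a ligand known for iron control through hepcidin, lies on chromosome 13 from 38345107 to 38500302 (plus strand). It stood at 22.2, 19.8 and 7.7 scaled reads in libraries labelled control 1, 2 and 3 and at 10.3, 27.7 and 40.2 in libraries labelled knockout 1, 2 and 3. Control 3 and knockout 1 held 9 reads each. The limma log2 difference was 0.56 ± 0.70 (SE), and the pair differences ran from -1.04 to 2.25. Leaving out 1 library moved it between 0.11 (without control 3) and 1.09 (without knockout 1), and it was 0.16 without knockout 3. Its span overlaps Txndc5 on the other strand, which held 3426 to 6607 scaled reads; the sources used here do not give the strand setting of the counting, so the Bmp6 values are uncertain.

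Bmp1, the protease that trims procollagens and cleaves the BMP antagonist chordin, lies on chromosome 14 from 70474558 to 70520234 (minus strand), with 18 exons in its longest transcript. It stood at 3064, 2688 and 2480 scaled reads in libraries labelled control 1, 2 and 3 and at 2783, 3294 and 3431 in libraries labelled knockout 1, 2 and 3. Its highest library was 1.38 times its lowest, the smallest such ratio of the 10, and means were 2744 ± 296 and 3169 ± 342 (SD, n = 3 each). Limma gave a log2 difference of 0.21 ± 0.23 (SE; 95% interval -0.32 to 0.74; unadjusted p = 0.4).

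**Figure D2:**
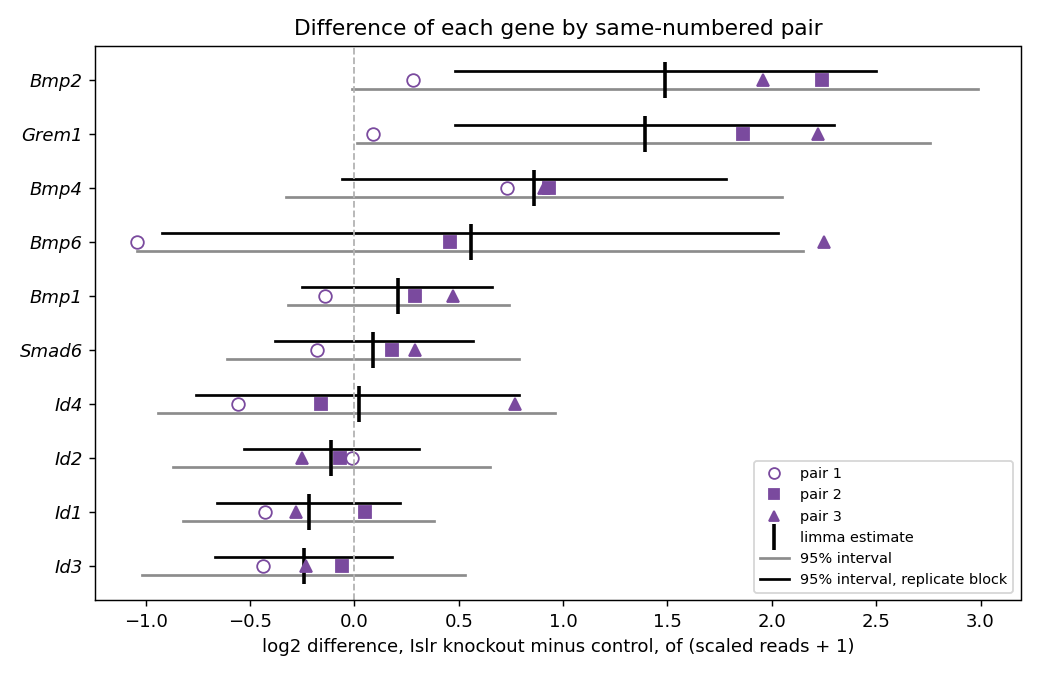
Log2 difference, Islr knockout minus control, of scaled reads + 1 for each gene in the 3 same-numbered pairs (markers), with the limma estimate (black tick) and its 95% interval without (grey) and with (black) the replicate block. Grem1 and Bmp2 had blocked intervals above 0 (from 0.48 for both), and the intervals of the other 8 genes spanned 0.

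The Id genes showed no difference that the test could call, and their estimates were small. Id3, on chromosome 4 from 136143497 to 136145755 (plus strand), stood at 7286, 11589 and 10798 scaled reads in libraries labelled control 1, 2 and 3 and at 5375, 11095 and 9199 in libraries labelled knockout 1, 2 and 3. Within each pair the knockout library was the lower one, with log2 differences of -0.44, -0.06 and -0.23, as it was for 12.1% of all features. Means were 9891 ± 2291 and 8556 ± 2914 (SD, n = 3 each), and the limma log2 difference was -0.24 ± 0.34 (SE; 95% interval -1.02 to 0.53). Id3 and Id1 are the family members most often used as readouts of BMP signalling.

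Id1, on chromosome 2 from 152736251 to 152737410 (plus strand), stood at 5413, 6247 and 6356 scaled reads in libraries labelled control 1, 2 and 3 and at 4017, 6477 and 5224 in libraries labelled knockout 1, 2 and 3. Knockout 1 was lowest and knockout 2 highest of all 6, so the control libraries lay inside the knockout range. The limma log2 difference was -0.22 ± 0.26 (SE; 95% interval -0.82 to 0.38; unadjusted p = 0.427). It was -0.04 without knockout 1.

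Id2, on chromosome 12 from 25093799 to 25097140 (minus strand), stood at 2981, 4802 and 2795 scaled reads in libraries labelled control 1, 2 and 3 and at 2962, 4577 and 2347 in libraries labelled knockout 1, 2 and 3. The libraries of number 2 were the highest of both groups. The limma log2 difference between groups was -0.11 ± 0.33 (SE; 95% interval -0.87 to 0.65), and pair differences were -0.01, -0.07 and -0.25. Id2 and Id3 were the 2 members lower in the knockout library of all 3 pairs.

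Id4, the least abundant of the family and a factor best known from neural and mammary cells, lies on chromosome 13 from 48261228 to 48266026 (plus strand). It stood at 155.5, 144.5 and 69.9 scaled reads in libraries labelled control 1, 2 and 3 and at 105.0, 129.2 and 119.7 in libraries labelled knockout 1, 2 and 3. Control 3 was the lowest of all, and the knockout libraries lay between it and the other 2 control libraries. In limma the log2 difference was 0.02 ± 0.42 (SE; 95% interval -0.94 to 0.96); edgeR gave -0.06, and without control 3 limma gave -0.35.

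Smad6, which blocks BMP receptors from inside the cell and is itself a BMP target, lies on chromosome 9 from 63953076 to 64022059 (minus strand). It stood at 713.3, 541.9 and 374.2 scaled reads in libraries labelled control 1, 2 and 3 and at 627.5, 612.6 and 457.0 in libraries labelled knockout 1, 2 and 3. The number 1 library was the highest and the number 3 library the lowest in each group. The limma log2 difference was 0.09 ± 0.31 (SE; 95% interval -0.61 to 0.79). Over the 4 Id genes and Smad6, the limma 95% intervals reached from -1.02 (Id3) to 0.96 (Id4). With the replicate block they reached from -0.76 to 0.79, both for Id4.

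Differences between the replicate numbers were tested in the same libraries. With group in the model, a limma F test between the 3 numbers called 1291 (6.35%) of all features at an adjusted p under 0.05 and 0 of the 10, while 5494 (27%) of all features and 4 of the 10 had an unadjusted p under 0.05. These 4 were Id2 (adjusted p = 0.0847), Id3 (0.0899), Grem1 (0.165) and Bmp2 (0.177). Id2 was lower in number 3 than in number 2 by a log2 difference of -0.87 ± 0.22 (SE). Id3 was higher in number 2 than in number 1 by 0.86 ± 0.23 (SE). Grem1 and Bmp2 were higher in number 3 than in number 1, by 1.48 ± 0.47 and 1.61 ± 0.54 (SE). On recovered reads DESeq2 called Id2, Id3 and Grem1 in this comparison, where it called 9.8% of all features, and edgeR called 0 of the 10 and 4.26% of all features, with 2 of the 10 and 29.8% of features at an unadjusted p under 0.05. Without control 1 limma called Grem1 (adjusted p = 0.0332) and 2.57% of all features. The labels do not say what the numbers mark.

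Levels can be compared between genes only per length, which the deposited FPKM values allow. Id3 led at a mean of 396 FPKM over the 6 libraries (range 224 to 483), followed by Id1 at 266 (184 to 313), Id2 at 94.1 (70.8 to 127), Grem1 at 90.0 (26.6 to 273) and Bmp1 at 30.3 (25.6 to 38.0). Smad6 averaged 10.2 FPKM (7.20 to 12.8), Id4 1.71 (1.04 to 2.16), Bmp2 1.43 (0.386 to 4.04), Bmp4 0.918 (0.489 to 1.78) and Bmp6 0.328 (0.122 to 0.664). The ranges did not meet between Id1 and Id2, between Bmp1 and Smad6 or between Smad6 and Id4; all other neighbours in this order overlapped. The targets Id1, Id2 and Id3 and the antagonist Grem1 were thus far above the 3 ligand genes in FPKM. The order of Grem1 and Id2 depended on the library: in FPKM it stood below Id2 in the control libraries, at 39.6, 26.6 and 56.3, and above it in knockout 3, at 273 against 70.8.

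For 4 of the genes the features with the nearest profile over the 6 libraries were taken by root mean square difference of centred log2 values, among the 10411 other features with a symbol and a mean of at least 100 scaled reads (10412 for Bmp4). Nearest to Id1 were Ndufs7 and Spc25 (0.044 each) and Ppp4c (0.045). Nearest to Id2 were Smarcd1 and Entpd6 (0.056 each) and Rpp30 (0.057), and nearest to Id3 were Tsen34 (0.062), Slc25a39 (0.069) and Rnaseh2c (0.079). Bmp4 had no neighbour as near, with Plekhb2 (0.149), Myo6 (0.153) and Abca2 (0.169). No other Id gene was among these neighbours. Bmp4 held 17 to 74 reads in a library, far fewer than Id1, Id2 or Id3. Its larger distances may therefore hold more counting noise, which was not tested.

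The rest of the pathway was read from 8 lists of 91 genes, of which 87 were in the table and 81 were tested. Limma called 0 of the 81; 49 were on the higher and 32 on the lower side. With the replicate block 11 had an unadjusted p under 0.05, 10 higher and 1 lower, which is 13.6% beside 4.59% of all features. Groups did not overlap for 6 higher (7.41%, beside 2.65% of all features) and 1 lower; Tob2 among the higher and Tbx2, the lower one, are named after their values were seen. These shares describe lists chosen with earlier results in view.

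Among other BMP and GDF ligands, all 7 tested of 12 listed had estimates on the higher side, with a median log2 difference of 1.52. The list held 2 kinds of value: Bmp3, Bmp8b and Gdf7, named after their values were seen, had log2 differences of 0.11, 0.14 and 0.18, and the other 4 had 1.52 or more. Of these 4 all but Gdf6 were scarce. Bmp7 stood at 6.7, 5.8 and 6.8 scaled reads in libraries labelled control 1, 2 and 3 and at 11.4, 30.4 and 34.3 in libraries labelled knockout 1, 2 and 3 (limma log2 difference 1.69 ± 0.64, SE, unadjusted p = 0.0269). Bmp5 stood at 3.3, 5.8 and 6.0 against 9.1, 30.4 and 14.2, and Bmp8a at 2.2, 2.3 and 5.1 against 14.8, 7.4 and 22.6. For these 3 ligands the groups did not overlap, knockout 1 included. Gdf6, a ligand of joint and skeletal patterning, was more abundant and more variable, at 424.4, 9.3 and 109.1 against 609.2, 137.5 and 481.3. Its limma log2 difference was 2.13 ± 1.40 (SE), with an unadjusted p of 0.178 without and 0.00552 with the replicate block; without control 2 it was 0.67. In the blocked fit without number 1 Gdf6 had an adjusted p of 0.0199.

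Estimates were higher for 11 of 13 receptors and co-receptors (median log2 difference 0.21). Acvrl1, a type I receptor of endothelial cells, stood at 84.4, 71.1 and 118.5 scaled reads in libraries labelled control 1, 2 and 3 and at 76.4, 261.1 and 359.9 in libraries labelled knockout 1, 2 and 3, with the same order of libraries as Bmp2 within each group. Tgfbr3, the co-receptor betaglycan, stood at 51.1, 17.5 and 99.7 against 66.2, 90.4 and 227.7. Limma log2 differences were 1.10 ± 0.58 (SE; unadjusted p = 0.0884, or 0.025 with the block) for Acvrl1 and 1.28 ± 0.71 (SE; unadjusted p = 0.104, or 0.0148 with the block) for Tgfbr3. Acvrl1 was 1.77 without knockout 1 and 0.66 without knockout 3, and Tgfbr3 was 0.63 without control 2 and 0.77 without knockout 3. The 7 Smads had a median of 0.09 and none had an unadjusted p under 0.05 with or without the block; Smad5, which carries the BMP signal, averaged 2063 ± 745 in the control and 1815 ± 415 in the knockout libraries, and inhibitory Smad7 averaged 1499 ± 882 and 1964 ± 348 (SD, n = 3 each).

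Estimates for secreted antagonists other than Grem1 were higher for 11 of 16 tested, with a median log2 difference of 0.25. Bmper, a BMP-binding endothelial regulator, averaged 133 ± 12.8 and 227 ± 97.9 (SD, n = 3 each), and its groups did not overlap. Estimates were higher for 7 of 12 intracellular inhibitors (median 0.11). Smurf2, a ubiquitin ligase for receptors and Smads, averaged 1722 ± 576 and 2541 ± 31.3 (SD, n = 3 each) and its groups did not overlap. Unadjusted limma p-values were 0.104 for Bmper and 0.0704 for Smurf2, and 0.0489 and 0.0273 with the block; edgeR with the block gave 0.055 and 0.0365. The log2 difference of Bmper was 0.69 and 0.36 without knockout 3, and that of Smurf2 was 0.63 and 0.31 without control 3.

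Further downstream, estimates for other BMP targets were lower for 10 of 15, with a median log2 difference of -0.11; the T-box repressor Tbx3 was among the 5 on the higher side, at 263 ± 84.4 and 392 ± 86.7 (SD, n = 3 each), with an unadjusted limma p of 0.113, or 0.0455 with the block, and a log2 difference of 0.61, or 0.31 without control 2. All 7 E protein and myogenic factor genes, the binding partners of Id proteins and their helix-loop-helix relatives, were on the lower side. Their median was -0.22, and Tcf4 and Myf6, named after their values were seen, had -0.01 and -0.03. The median pair difference of the list was 0.31, -0.37 and -0.56 for numbers 1, 2 and 3, so number 1 went the other way. Myod1, the myoblast determination factor, stood at 24224, 33818 and 32136 scaled reads in libraries labelled control 1, 2 and 3 and at 20943, 24544 and 18888 in libraries labelled knockout 1, 2 and 3 (limma log2 difference -0.48 ± 0.27, SE, unadjusted p = 0.107, or 0.0356 with the replicate block). Of the 4 tolloid proteases and enhancers, 2 were on the higher and 2 on the lower side (median 0.40). The proteases Tll1 and Tll2, named after their values were seen, had log2 differences of 1.18 and 0.88, and the abundant enhancers Pcolce and Pcolce2 had -0.11 ± 0.56 and -0.08 ± 0.48 (SE). Between replicate numbers, 13 of the 81 (16.0%) were called, beside 6.35% of all features.

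**Figure D3:**
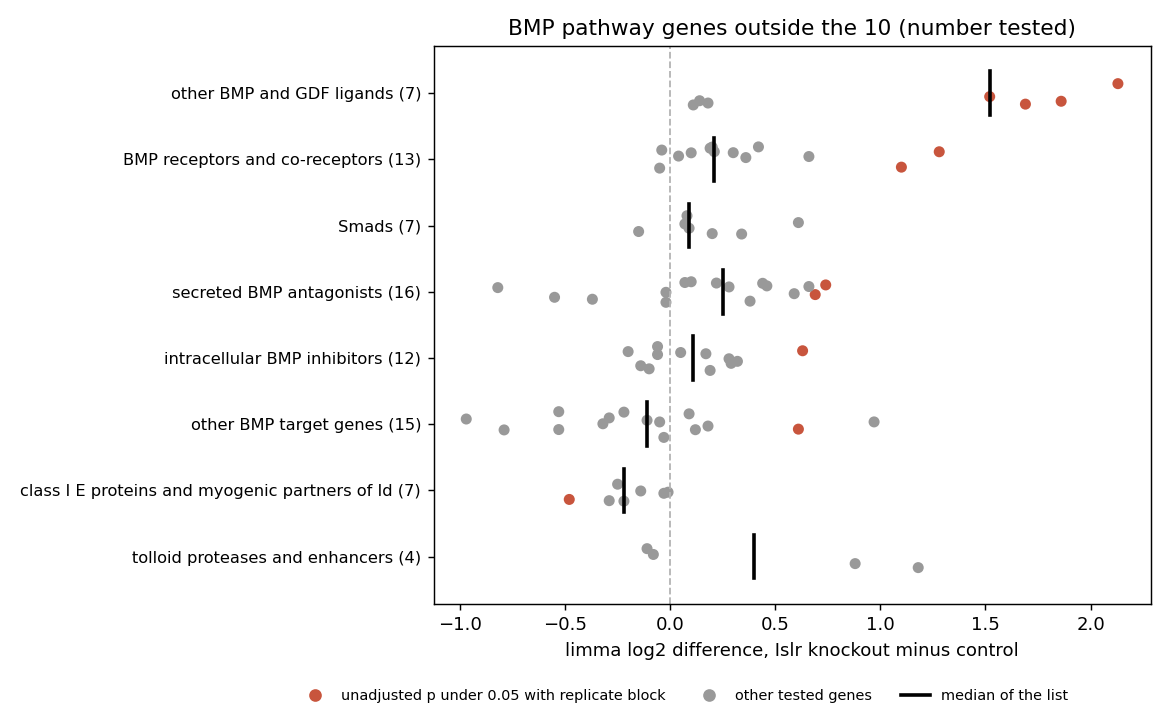
Limma log2 difference, Islr knockout minus control, of each tested gene in 8 lists of BMP pathway genes outside the 10 (points, spread vertically at random); red points have an unadjusted p under 0.05 with the replicate block and black bars give the median of each list. The ligand list had a median of 1.52, the others lay between -0.22 and 0.40, and no gene passed the adjusted threshold.

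Markers of other cell types varied with the libraries in which Grem1 and Bmp2 were high. Fibro-adipogenic and fibroblast markers summed to 811, 750.5 and 1944 scaled reads in libraries labelled control 1, 2 and 3 and to 636.6, 2629 and 5194 in libraries labelled knockout 1, 2 and 3; 10 of 11 tested were on the higher side, and Dpt, Dpp4, Pi16 and Tcf21 were at 0 in at least 1 library. Endothelial markers summed to 324.4, 656.1 and 478.1 against 327.4, 1521 and 1358, with 8 of 8 on the higher side. Both sums were high in knockout 2 and 3, the libraries in which Grem1, Bmp2 and Acvrl1 were high, while in knockout 1 they were below or at the low end of the control range. Macrophage markers summed to 166.6, 137.5 and 170.5 against 98.1, 317.4 and 529.8, with 6 of 8 on the higher side; Ptprc, the leukocyte surface phosphatase, was at 0 in the 3 control libraries and in knockout 2. Satellite cell markers summed to 182158, 92173 and 125421 against 173960, 79377 and 87534, with 7 of 8 on the lower side. This sum was highest in control 1 and knockout 1, where its largest members were Des (76325 and 70905) and Chrna1 (45656 and 44991). Pax7 did not follow the sum, at 1233, 2729 and 1634 against 1558, 1667 and 1319. The sum is therefore no count of satellite cells, and what moved it was not tested.

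The remaining marker lists were less alike. Schwann and glial markers ran from 712 to 2356 in the control and from 1756 to 3107 in the knockout libraries (5 of 6 higher), smooth muscle and pericyte markers from 2393 to 3685 and from 2477 to 4763 (5 of 6 higher; Kcnj8 at 0 in control 1). Tenocyte and chondrocyte markers ran from 3019 to 3844 and from 2499 to 3504 (3 of 6 higher). No marker in these 7 lists was called. The part of other cell types in the values of Grem1, Bmp2 and the other ligands was not tested, and in these bulk libraries fewer cells of a type and less RNA per cell cannot be told apart.

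**Figure D4:**
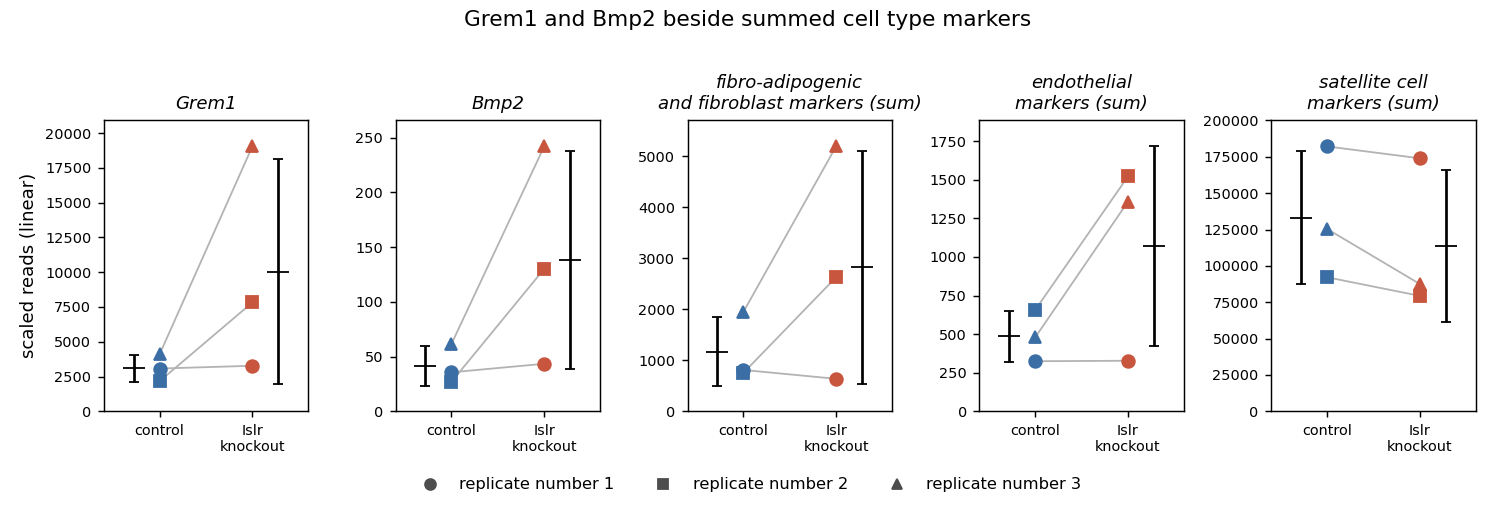
Scaled reads (linear axes from 0) of Grem1 and Bmp2 and the summed markers of fibro-adipogenic and fibroblast, endothelial and satellite cells in the 6 libraries; colours, shapes, lines and bars as for the plot of the 10 genes. Fibro-adipogenic sums of 2629 and 5194 and endothelial sums of 1521 and 1358 in knockout 2 and 3 exceeded those of all control libraries, while knockout 1 stood at 636.6 and 327.4.

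The authors' deposited table gives its own comparison of the 10 genes, with an adjusted p of 0.9998 for each. The authors' deposited table lists a log2 fold change of 1.69 (p = 0.0042) for Grem1, 1.74 (p = 0.00763) for Bmp2 and 0.90 (p = 0.118) for Bmp4. For Id1, Id2 and Id3 the authors' deposited table lists -0.20, -0.10 and -0.21. In the authors' deposited table of GO terms, the BMP signaling pathway term had 149 annotated genes, of which 10 were listed where 1.89 were expected (p = 0.00093, adjusted p = 0.046684). The listed genes of that table had unadjusted p-values of up to 0.05 in the authors' deposited table. Of the 10 genes described here, Bmp2 and Grem1 alone appear among the listed genes of any term; no Id gene does.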

How the data were processed

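RNA of 6 satellite cell libraries was sequenced. Tools listed in the submitters' processing notes, in no stated order, were DESeq2 1.16.1, edgeR 3.18.1, HTSeq, HISAT2 2.0.5 and Trimmomatic. The sources used here do not give strand setting or annotation. The main deposited table holds a signal per gene and library, the gene count divided by a size factor (0.8581 to 1.1948), and, per the file headers, FPKM, the authors' log2 fold change and their p-value. After 36 damaged lines were dropped, 27366 features remained. Whole reads were recovered for 100.0% of values within 0.01 reads, and 480 of 480 genes shared with the deposited raw count table had the same count. The deposited FPKM used the longest transcript's length for 99.7% of 8705 genes checked. Of 10 members, 10 had GENCODE M21 coordinates on GRCm38.

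The members and gene lists were chosen with earlier results of these data known. Differences were tested with limma 3.58.1 (trend, robust) on log2(scaled reads + 1) over 20344 features whose mean was 1 or more. Tests were two-sided, at a Benjamini-Hochberg adjusted p under 0.05 over all features. This scale understates changes of low genes. The replicate-number block (correlations 0.689, 0.633 and 0.625 of same-numbered libraries), edgeR 4.0.16 and DESeq2 1.42.0 on recovered reads, other scalings, pseudocount and filters, and leaving out libraries were alternatives. The pairs follow the numbers in the labels, which do not say what the numbers mark or that they pair libraries. That same-numbered libraries vary together comes from the data. The limma fit was tested on simulated data. Those data gave every gene the same dispersion and, for the group comparison, no difference between replicate numbers. They therefore do not show how the fit does at the spread of these libraries. All 10 genes were named, and of each pathway list the genes with an unadjusted limma p under 0.05 with or without the block, or else the 2 most abundant; 1 gene so chosen is not reported here. Depth of 16456917 to 20531276 reads leaves the scarcest member with 9 reads in 2 libraries.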

Additional observations from a re-analysis of the deposited data

How the results depend on the processing

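Between the groups, 0 of the 10 genes were called in limma and in every alternative but 1. In the fit with the replicate block and without both libraries of number 1, 1 of the 10 (Grem1), 93 of all features and 2 pathway genes (Gdf6 and, named after its values were seen, Tll1) were called; the other settings called 0 of each, the replicate block alone included. Over leave-one-out fits the counts thus ran from 0 to 1, 0 to 93 and 0 to 2. The block changed no other call.

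Between replicate numbers, 0 of the 10 were called in the main fit, 2 with no filter (Id2 and Id3), 3 with DESeq2 (Id2, Id3 and Grem1) and 0 to 1 when a library was left out (Grem1, adjusted p = 0.0332, without control 1). All features called there were 1291, and 566 with a pseudocount of 0.1, 3309 with no filter, 795 with a mean of at least 10, 639 with edgeR, 2682 with DESeq2 and 291 to 2513 when a library was left out. The cause was not tested.

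The sign was kept in all 18 alternatives by Id1 (-0.39 to -0.04), Bmp1 (0.08 to 0.38), Bmp2 (0.94 to 2.16), Bmp4 (0.59 to 1.097) and Grem1 (0.75 to 2.04). Reversed log2 differences all came from estimates below their standard error, except that of Smad7, and their cause was not tested. Lowest and highest values with 1 library left out are given for each gene that reversed. Id2 ran from -0.375 to 0.135 (without control 2; 0.106 without knockout 3), and Id3 from -0.464 to 0.059 (without knockout 1). Id4 was -0.058 with edgeR and -0.06 with DESeq2, from -0.349 (without control 3; -0.053 without knockout 2) to 0.223 and -0.36 in the blocked fit without number 3. Bmp6 ran from 0.108 (without control 3) to 1.092 (without knockout 1) and was -0.29 in the blocked fit without number 3. Smad6 ran from -0.15 (without control 3) to 0.314 and was -0.004 in the blocked fit without number 3, and Smad7 ran from -0.01 (without control 3) to 1.026. Pax7 ran from -0.486 to 0.087 (without control 2) and was 0.014 in the blocked fit without number 2. Myog ran from -2.524 to 0.824 (without control 1; 0.822 without control 3 and 0.664 without knockout 2) and was 1.018 in the blocked fit without number 3. Smad5 ran from -0.394 to 0.122 (without control 2; 0.019 without knockout 3) and was 0.122 in the blocked fit without number 2. Pcolce ran from -0.483 to 0.476 (without control 3; 0.302 without knockout 1) and was 0.087 and 0.164 in the blocked fits without numbers 1 and 3. Pcolce2 ran from -0.472 to 0.392 (without control 2; 0.005 without knockout 1 and 0.195 without knockout 3) and was 0.023 in the blocked fit without number 2.

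Grem1, Id1, Id2 and Id3 were deeply covered, so their precision was limited by the spread between 3 libraries a group, while Bmp4 and Bmp6 also rest on few reads. Bmp5 and Bmp8a had no value in 1 and 2 of the alternatives, where they missed the filter.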
